A study of Mus musculus with 6 samples.

Results

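*Otor*, *Gsg1*, *Lrtm1*, *A730046J19Rik*, *Samsn1* and *Zfhx4* are 6 of the 21744 genes listed for the mouse retina at postnatal day 7 (P7). They were chosen by their measured values, as genes with clear falls in the *Lhx4* null samples and little known function in the retina. Their differences between the groups are therefore given as a description, without a test, and other genes are tested beside them. All 6 passed a filter on low values that left 15200 genes.

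The study asked how loss of *Lhx4*, a LIM-homeodomain transcription factor gene of bipolar cells, alters the transcriptome of the developing retina. Each of the 6 libraries was made from the retinas of 1 mouse, 3 of them control and 3 *Lhx4* null, after the pigment epithelium had been removed. The strain of both groups was C57BL/6J; 129S6 mixed background. In the study, the null genotype was *Lhx4* tdT/loxP; *Six3*-*Cre*, a tdTomato reporter knockin allele over a floxed allele with Cre driven by *Six3* in the developing retina. The controls of its electroretinogram experiment were wild type or *Lhx4* loxP/+, and the alleles of the control mice sequenced are given only as control. FPKM, the unit of the values, is the number of sequenced fragments per kilobase of transcript and per M (mega) of mapped fragments, and the filter asked for a mean of 0.1 FPKM or more.

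Bipolar cells carry signals from rods and cones to amacrine and ganglion cells, and they arise mostly in the days after birth in the mouse. The 6 genes encode unrelated proteins. *Otor* encodes otoraplin, a small secreted protein of the MIA family known from the cochlea, and *Lrtm1* and *A730046J19Rik* encode membrane proteins, with leucine-rich repeats in the former and a synonym, SERTM2, that places the latter with the serine-rich transmembrane proteins. *Gsg1* encodes a tetraspan protein known from male germ cells, *Samsn1* an adaptor with SAM and SH3 domains known from immune cells, and *Zfhx4* a large transcription factor with zinc fingers and homeodomains.

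*Lhx4* itself was listed at 20.9, 23.8 and 19.1 FPKM in control replicates 1, 2 and 3, and at 31.2, 30.3 and 29.0 FPKM in null replicates 1, 2 and 3. Its log2 fold change was 0.51 (standard error 0.09), and limma gave it an adjusted p of 0.098 with Benjamini-Hochberg adjustment for every gene tested, with all 3 libraries of the null group above all 3 controls. An FPKM sums over all exons of a gene, so the part of the transcript that was read is not seen in it. A level above the controls therefore neither checks nor contradicts the label of a floxed and reporter allele. The second group is called the libraries labelled *Lhx4* null, and directions below follow the labels.

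Sequencing depth was worked out from low genes, whose values move in steps of whole fragments. It came to 36.4, 29.3 and 38.0 M fragments in the controls and to 17.8, 21.9 and 25.1 M fragments in the libraries labelled *Lhx4* null. All 3 of the latter were shallower than all 3 controls (exact permutation test of the 6 depths, two-sided p = 0.1, the smallest that 3 against 3 can give). Between 70.5% and 74.0% of the low values checked in a library lay within 0.03 of a whole fragment. The libraries correlated across genes with r from 0.982 to 0.992 within groups and from 0.982 to 0.990 between groups.

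*Otor* (ENSMUSG00000027416) lies on chromosome 2 of GRCm38 from 143078473 to 143081713, with 1 annotated transcript of 949 bases and 4 exons. Its level was 5.71, 7.97 and 6.94 FPKM in replicates 1, 2 and 3 of the controls, and 0.0725, 0.470 and 0.661 FPKM in replicates 1, 2 and 3 labelled *Lhx4* null. The groups were far apart, and the lowest control was 8.63 times the highest library labelled null. With a single transcript, the fragments behind each value could be counted: 163, 181 and 207 in the controls and 1, 8 and 13 in the others. The 95% Poisson intervals of the latter, 0.0253 to 5.57, 3.45 to 15.8 and 6.92 to 22.2 fragments, cover counting error only. In FPKM these intervals ran from 0.00183 to 0.404, from 0.203 to 0.924 and from 0.352 to 1.13, so they overlapped. The means of the controls and the others were 6.87 ± 1.13 and 0.401 ± 0.30 FPKM (SD, n = 3 each), with 5.84% of the control mean left. The log2 fold change of FPKM + 0.1 was -4.04 (standard error 0.48), on a scale that understates the change of low genes. Leaving out each library in turn, it ran from -4.46 to -3.39.

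*Gsg1* (ENSMUSG00000030206) lies on the minus strand of chromosome 6 from 135237326 to 135254351, with 4 annotated transcripts. It was at 16.3, 19.7 and 18.2 FPKM in the controls, against 2.78, 2.54 and 4.35 FPKM in those labelled *Lhx4* null. It had the highest control level of the 6 genes, and its groups did not overlap. From 18.1 ± 1.7 FPKM, 17.9% was left, at 3.22 ± 0.98 FPKM (SD, n = 3), a log2 fold change of -2.48 (standard error 0.19). Of its exon bases, 18.5% are shared with *Fam234b* on the opposite strand, and whether counting took account of strand is not stated, so fragments there cannot be assigned. *Fam234b* was at 15, 16.5 and 14.1 FPKM in the controls against 14.5, 15 and 14.6 FPKM in the others, and its log2 fold change was -0.04 (limma adjusted p = 0.92, standard error 0.08).

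*Lrtm1* (ENSMUSG00000045776), on chromosome 14 from 29018208 to 29033645, was the lowest of the 6 in every control library. It was at 1.36, 2.5 and 1.21 FPKM in the controls, against 0.974, 0.453 and 0.642 FPKM in those labelled *Lhx4* null. The groups came close, with the lowest control 1.24 times the highest of the others. The means were 1.69 ± 0.71 and 0.690 ± 0.264 FPKM (SD, n = 3), 40.8% of the control mean was left, and the log2 fold change was -1.16 (standard error 0.32). Its spread was wide in both groups, with SDs of 41.9% and 38.3% of the means. *Lrtm1* lies inside the calcium channel gene *Cacna2d3*, on the opposite strand and sharing 0 exon bases with it. *Cacna2d3* was at 6.27, 6.79 and 6.39 FPKM in the controls and at 6.98, 6.23 and 6.70 FPKM in the others (0.03 in log2 fold change, standard error 0.09, adjusted p = 0.95 from limma).

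*A730046J19Rik* (ENSMUSG00000085139), on chromosome X from 144153695 to 144166274, has 1 annotated transcript of 4707 bases in 3 exons. Its level was 6.88, 7.40 and 7.45 FPKM in the controls, against 2.61, 2.48 and 3.03 FPKM in those labelled *Lhx4* null. It was the steadiest of the 6 in the controls, where the SD was 4.36% of the mean. To the nearest whole number, the controls held 1138, 984 and 1287 of its fragments and the others 211, 247 and 345, with 95% Poisson intervals from 2.19 to 3.37 FPKM at the outermost in the latter and from 6.49 to 7.88 FPKM in the former. The means were 7.24 ± 0.32 and 2.71 ± 0.29 FPKM (SD, n = 3), with 37.4% left and a log2 fold change of -1.39 (standard error 0.11).

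The labels do not give the sex of the mice, and *A730046J19Rik* is the member on a sex chromosome. The Y-linked gene *Ddx3y*, chosen after its values were seen, was at 17.2, 7.56 and 0.139 FPKM in replicates 1, 2 and 3 of the controls and at 0.0196, 0 and 16.6 FPKM in replicates 1, 2 and 3 labelled *Lhx4* null. *Eif2s3y*, also Y-linked, was at 68.5, 25.1 and 0.833 FPKM and at 0.145, 0.113 and 72.7 FPKM. Libraries with high and with low values of these genes were thus found in both groups, and control replicate 2 lay in between. Each library is described as made from 1 mouse, which the intermediate level of this library does not match, and n = 3 mice rests on that description. The reason was not tested. *A730046J19Rik* was lowest among the controls in control replicate 1 and highest among the others in replicate 3 labelled *Lhx4* null, which are the libraries with the highest *Eif2s3y*.

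*Samsn1* (ENSMUSG00000022876) spans chromosome 16 from 75858793 to 76022281 on the minus strand, with 7 annotated transcripts. It was at 13.7, 16.8 and 14.6 FPKM in the controls, against 7.92, 7.19 and 7.58 FPKM in those labelled *Lhx4* null. The groups did not overlap, and 50.2% of the control mean was left, the largest share of the 6. The means were 15.1 ± 1.6 and 7.56 ± 0.36 FPKM (SD, n = 3), for a log2 fold change of -0.98 (standard error 0.10).

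*Zfhx4* (ENSMUSG00000025255) spans chromosome 3 from 5218526 to 5415857, with 5 annotated transcripts. It was at 7.81, 8.25 and 9.38 FPKM in the controls, against 2.99, 2.66 and 3.50 FPKM in those labelled *Lhx4* null. Again the groups did not overlap. The means were 8.48 ± 0.81 and 3.05 ± 0.43 FPKM (SD, n = 3), with 36.0% left and a log2 fold change of -1.45 (standard error 0.13). Antisense genes are annotated over a part of *Samsn1* (*Gm15555*) and a part of *Zfhx4* (*2700069I18Rik*), neither sharing exon bases with them, and neither is in the table of values.

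**Figure D1:**
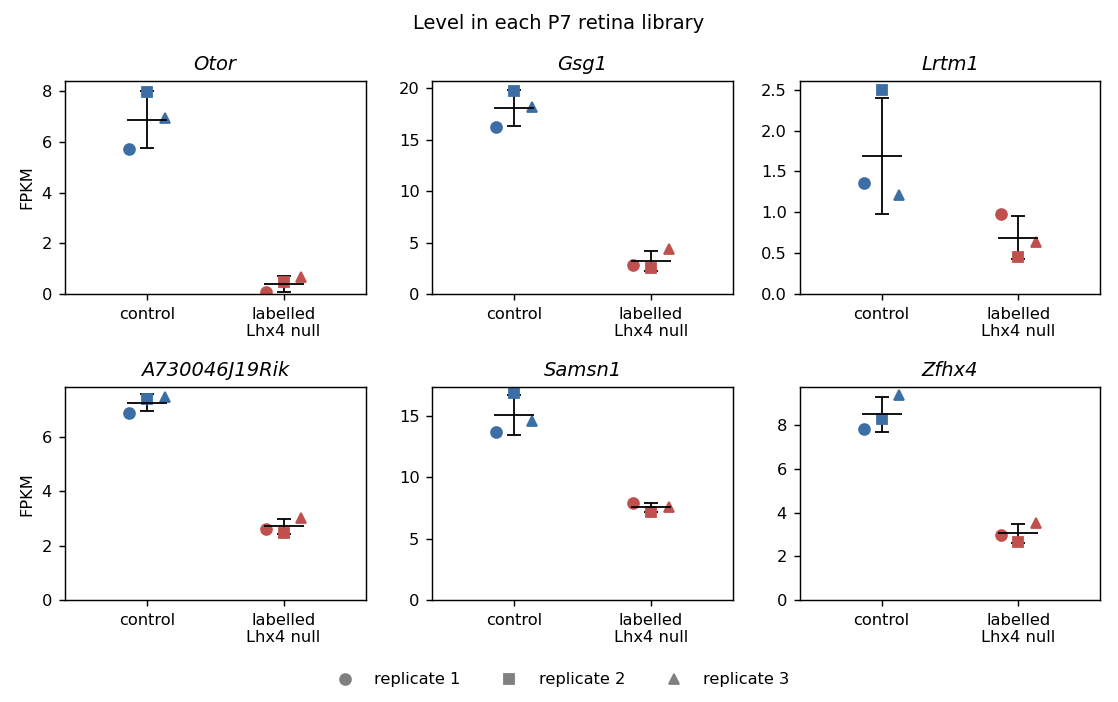
Level of each of the 6 genes in FPKM, on axes that start at 0, in the 3 control libraries and the 3 labelled *Lhx4* null, with marker shapes for the replicates and black bars for the mean and SD (n = 3). The groups are apart in each panel, and closest in *Lrtm1*, at 1.21 against 0.974 FPKM.

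**Figure D2:**
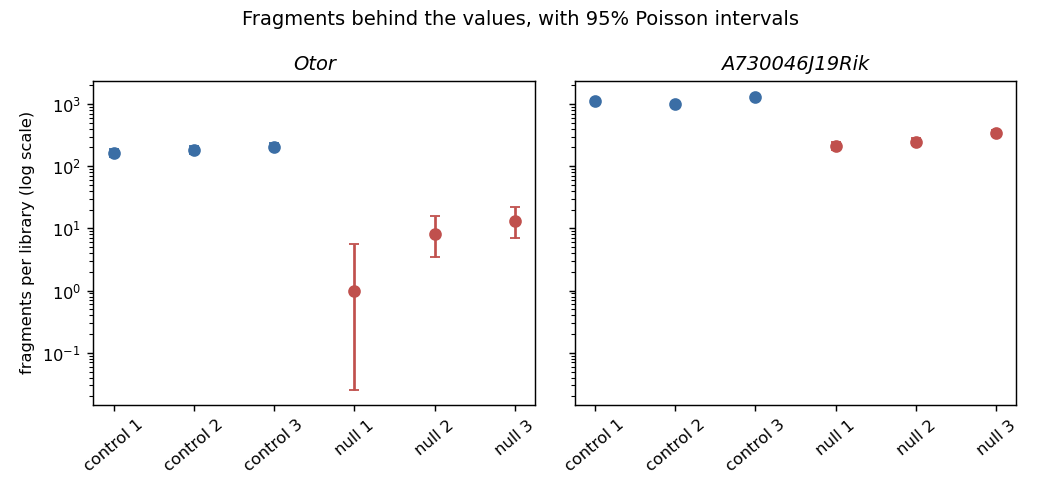
Fragments behind the values of *Otor* and *A730046J19Rik* in each library, on a log axis, with 95% Poisson intervals, which are smaller than the points at high counts. *Otor* rests on 1, 8 and 13 fragments in the libraries labelled *Lhx4* null and *A730046J19Rik* on 211, 247 and 345.

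In all 6 genes the 3 libraries labelled *Lhx4* null lay below the 3 controls, as they did in 6.13% of all genes tested. On the log2 scale 5 of the 6 were lower by over 2-fold, as were 0.533% of all genes tested, and *Samsn1* was the exception. *Lrtm1* was lower by less than 2-fold with a pseudocount of 1 FPKM (-0.65), without control replicate 2 (-0.86) and without replicate 2 labelled *Lhx4* null (-0.93). *Samsn1* was lower by over 2-fold without control replicate 1 (-1.04) and without replicate 1 labelled *Lhx4* null (-1.01). Both counts follow from how the genes were chosen. The median log2 fold change of the 6 was -1.42, and that of all genes tested was 0.01. In a bulk retina, fewer cells of a type and less RNA per cell cannot be told apart.

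Ordered by log2 fold change over all genes tested, 2 genes came below *Otor*. These were *Gm10181* (-4.78, standard error 4.35) and *Gm17604* (-4.70, standard error 3.31), named after their values were seen, each listed at 0 in at least 1 library and at 471 FPKM or more in the others. Between *Otor* and *Gsg1* came *Bhlhe23* (-3.78) and *Eif2s3y* (-2.91, standard error 2.33). The other members came further up, with 30 genes below *Zfhx4*, 36 below *A730046J19Rik*, 54 below *Lrtm1* and 85 below *Samsn1*.

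The order of the levels changed between the groups. In all 3 controls *Gsg1* was highest, then *Samsn1* and *Zfhx4*, and *Lrtm1* was lowest. *Otor* and *A730046J19Rik* took the places between, at 5.71 and 6.88, 7.97 and 7.40, and 6.94 and 7.45 FPKM in the 3 replicates, and did not differ beyond their spread. In the 3 libraries labelled *Lhx4* null *Samsn1* was highest, *Gsg1*, *Zfhx4* and *A730046J19Rik* lay together between 2.48 and 4.35 FPKM, and *Otor* and *Lrtm1* were the lowest pair. The summed level of the 6 was 51.7, 62.7 and 57.8 FPKM in the controls and 17.4, 15.8 and 19.8 FPKM in the others.

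Set among all genes of the table, *Gsg1* moved from above 78.7% of the genes by its control mean to above 52.1% by its mean in the libraries labelled *Lhx4* null. *Otor* moved from 61.3% to 36.9%, and *Samsn1*, the least changed in log2 fold change, from 75.1% to 62.7%. For *Zfhx4* the shares were 64.7% and 51.5%, for *A730046J19Rik* 62.1% and 50.3%, and for *Lrtm1* 46.6% and 40.2%. By control mean, 5 of the 6 were thus in the upper part of the table, above 60% of its genes.

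**Figure D3:**
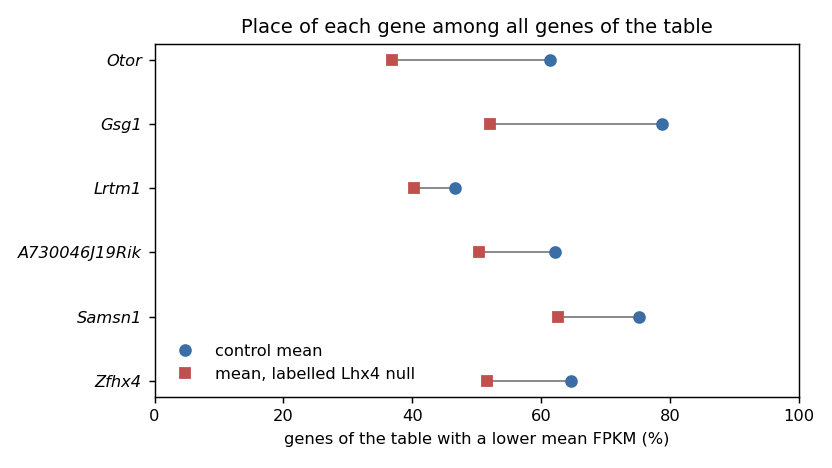
Share of the 21744 genes with a lower mean FPKM than each of the 6 genes, in percent, for the control mean (circles) and the mean of the libraries labelled *Lhx4* null (squares). *Gsg1* moves furthest, from 78.7% to 52.1%, and *Lrtm1* least, from 46.6% to 40.2%.

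Within the groups the 6 genes did not vary alike. After subtracting the group means of log2(FPKM + 0.1), the correlation over the 6 libraries was 0.98 between *Gsg1* and *A730046J19Rik*, 0.92 between *A730046J19Rik* and *Zfhx4*, and 0.81 between *Gsg1* and *Zfhx4*. These 3 genes were highest, among the libraries labelled *Lhx4* null, in replicate 3, as was *Otor*. Among the controls, *Otor* and *Gsg1* were highest in replicate 2. *Lrtm1* and *Samsn1* formed another pair (r = 0.88), highest in that control library and in replicate 1 labelled *Lhx4* null. The lowest value was that of *Otor* and *Lrtm1* (r = -0.42), which lay furthest apart in replicate 1 labelled *Lhx4* null (-1.29 and 0.50). Over the 15 pairs the median was 0.36, and these values, from 6 libraries, are a description only.

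The libraries in which *Lrtm1* and *Samsn1* were highest also had the highest levels in their groups of 6 of 8 rod genes. The rod transducin gene *Gnat1*, chosen after its values were seen, was at 29.2, 84.3 and 35.8 FPKM in replicates 1, 2 and 3 of the controls and at 56.1, 21.2 and 20.0 FPKM in replicates 1, 2 and 3 labelled *Lhx4* null. *Pde6a*, a rod phosphodiesterase gene chosen in the same way, was at 24.5, 47.3 and 26.5 FPKM and at 33.6, 12.8 and 17 FPKM. The 2 rod genes that did not follow in both groups were *Nrl*, at 478, 447 and 478 FPKM and at 462, 436 and 455 FPKM, and *Nr2e3*, at 789, 735 and 722 FPKM and at 772, 829 and 798 FPKM. Without control replicate 2 the log2 fold change of *Lrtm1* was -0.86 and that of *Samsn1* -0.90, and without replicate 1 labelled *Lhx4* null they were -1.41 and -1.01. Genes outside the rod list were also highest in those libraries of their groups, and the share of all genes that were was not counted. Among them, named after their values were seen, was the Müller glia gene *Glul*, at 77.7, 105 and 76.9 FPKM and at 108, 94.1 and 84.5 FPKM. Another was the ganglion cell gene *Thy1*, at 40.6, 47.7 and 42.8 FPKM and at 47.9, 40.9 and 41.2 FPKM. The part of this difference between libraries in the values of *Lrtm1* and *Samsn1* was not tested.

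**Figure D4:**
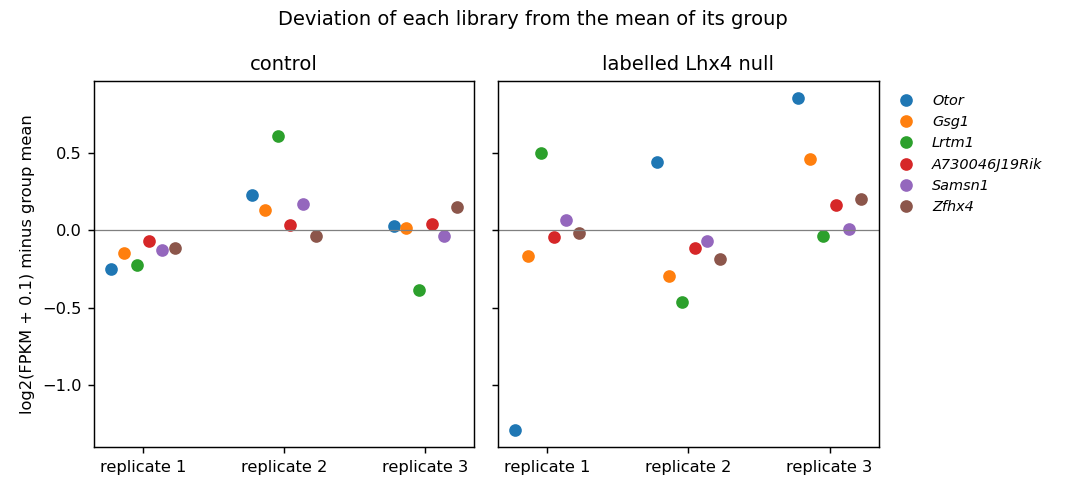
Deviation of log2(FPKM + 0.1) from the mean of its group for each of the 6 genes, by replicate, in the controls (left) and the libraries labelled *Lhx4* null (right). *Lrtm1* is highest in control replicate 2 (0.61) and in replicate 1 labelled *Lhx4* null (0.50), where *Otor* is lowest (-1.29).

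For each of the 6 genes, the genes most like it were sought by Pearson's r of log2(FPKM + 0.1) over the 6 libraries, among the 12485 genes whose mean reached 1 FPKM. *Grik1*, a kainate receptor gene of OFF bipolar cells, came first for *Gsg1* (r = 0.998) and *A730046J19Rik* (r = 0.999) and next after *A730046J19Rik* for *Zfhx4* (r = 0.994). *Gsg1* and *A730046J19Rik* stood among the 3 nearest genes of each other (r = 0.997) and of *Zfhx4* (r = 0.993 and 0.996), and the remaining gene of the 3 nearest to *Gsg1* was *Fndc4* (r = 0.993). *Samsn1* was nearest to *Cdh8*, a cadherin gene (r = 0.998), *Smug1*, a DNA glycosylase gene (r = 0.996), and *Fdft1*, which encodes squalene synthase (r = 0.995). *Lrtm1* was nearest to *Slitrk3*, which encodes a synaptic adhesion protein (r = 0.999), *Dlk2* (r = 0.993) and *Nyx*, which encodes the bipolar cell protein nyctalopin (r = 0.992). *Otor* was nearest to the giant cadherin gene *Fat4* (r = 0.996), the interferon-induced gene *Ifit2* (r = 0.989) and the ephrin receptor gene *Epha3* (r = 0.986). Such values, the highest of many genes over few libraries, carry no test. They span both groups, so a gene that falls steadily between the groups scores high with members chosen for a fall. Over the 15 pairs of the 6 genes, the median r was 0.96 on this scale and 0.36 after subtracting the group means. Nor do such values depend on the size of the change. *Fdft1* was at 12.2, 12.7 and 12.5 FPKM in the controls and 11.5, 11.1 and 11.3 FPKM elsewhere, and *Grik1* at 14.0, 14.8 and 14.6 and at 3.72, 3.62 and 4.75 FPKM.

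The relatives of the 6 genes were tested with limma across all 15200 genes, of which 0.138% were lower and 0.0855% were higher at an adjusted p under 0.05 in the libraries labelled *Lhx4* null. Of 64 relatives and functionally related genes tested, 0 were lower and 0 were higher by that rule, and 12 had an unadjusted p under 0.05 in limma. Of all genes tested, 3.55% were lower and 4.60% were higher at that unadjusted p, the shares to hold beside each such count below. The family relatives with such a p were the 2 of *Zfhx4*. *Zfhx3* was at 4.22, 4.37 and 4.12 FPKM in the controls and at 3.01, 2.83 and 2.35 FPKM in the others, with no overlap, and its log2 fold change of -0.62 (standard error 0.12) did not pass (adjusted p = 0.15 from limma). *Zfhx2* was at 18.7, 20.4 and 17.4 FPKM and at 15.9, 16.7 and 16.6 FPKM, also with no overlap (log2 fold change -0.20, standard error 0.08, adjusted p = 0.60 from limma).

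Of the family relatives of the other members, 0 had an unadjusted p under 0.05 in limma. For *Otor*, *Mia3*, which encodes a protein of collagen export, was at a mean of 58.5 FPKM over the 6 libraries (log2 fold change 0.07, adjusted p = 0.88 from limma). *Mia* was at 0.273, 0.304 and 0.224 FPKM in the controls, and at 0.967 FPKM in replicate 2 labelled *Lhx4* null and at or near 0 in its other replicates. Its log2 fold change was -0.73, with a standard error of 0.83 (limma adjusted p = 0.84), while its mean was 0.267 FPKM in the controls and 0.322 FPKM in the others. That fold change ran from -1.87 to -0.16 with a library left out and was -0.02 with a pseudocount of 1 FPKM and -2.58 with 0.01 FPKM. *Mia2*, under 0.1 FPKM, was too low to be tested. For *Gsg1*, *Gsg1l*, whose protein is an auxiliary subunit of AMPA receptors, was at 4, 4.42 and 4.24 FPKM in the controls and at 5.51, 4.96 and 4.50 FPKM in the others (0.23 in log2 fold change, adjusted p = 0.64 from limma), and *Gsg1l2* had a log2 fold change of -0.26 (adjusted p = 0.83). For *Lrtm1*, *Lrtm2* was at 10.5, 10.7 and 10 FPKM and at 10.8, 10.7 and 10.7 FPKM (0.04 in log2 fold change, adjusted p = 0.92 in limma). For *Samsn1*, *Sash1* had a log2 fold change of 0.24 and *Sash3* of 0.09 (adjusted p = 0.64 and 0.96 from limma), and *Sertm1*, the relative of *A730046J19Rik* added after its values were seen, of 0.03 (adjusted p = 0.98).

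Among 13 auxiliary subunits of AMPA receptors, the median log2 fold change was 0.10, with 4 genes higher at an unadjusted p under 0.05 and 0 past the adjusted threshold of limma. The most abundant were *Cacng7*, *Cacng4* and *Cnih2*, at 47.8, 28.7 and 28.4 FPKM over the 6 libraries. Among 33 leucine-rich repeat transmembrane proteins of neurons the median was 0.03, with 4 genes lower and 2 higher at an unadjusted p under 0.05 and 0 past the adjusted threshold of limma, and *Lrit1*, *Elfn1* and *Lrrc4b* were highest, at 46.3, 33.5 and 29.9 FPKM. Among 13 zinc finger homeobox genes other than *Zfhx4* the median was -0.01, 2 genes, *Zfhx2* and *Zfhx3*, were lower at an unadjusted p under 0.05 and 0 passed the adjusted threshold of limma. *Zeb2*, *Adnp* and *Zfhx2* were the most abundant there, at 28.5, 17.9 and 17.6 FPKM. Without replicate 1 labelled *Lhx4* null, 1 leucine-rich repeat gene passed, *Islr2*, at a log2 fold change of 0.80 against 0.65 over all libraries (adjusted p = 0.019 and 0.14 from limma). It was named after its values were seen.

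**Figure D5:**
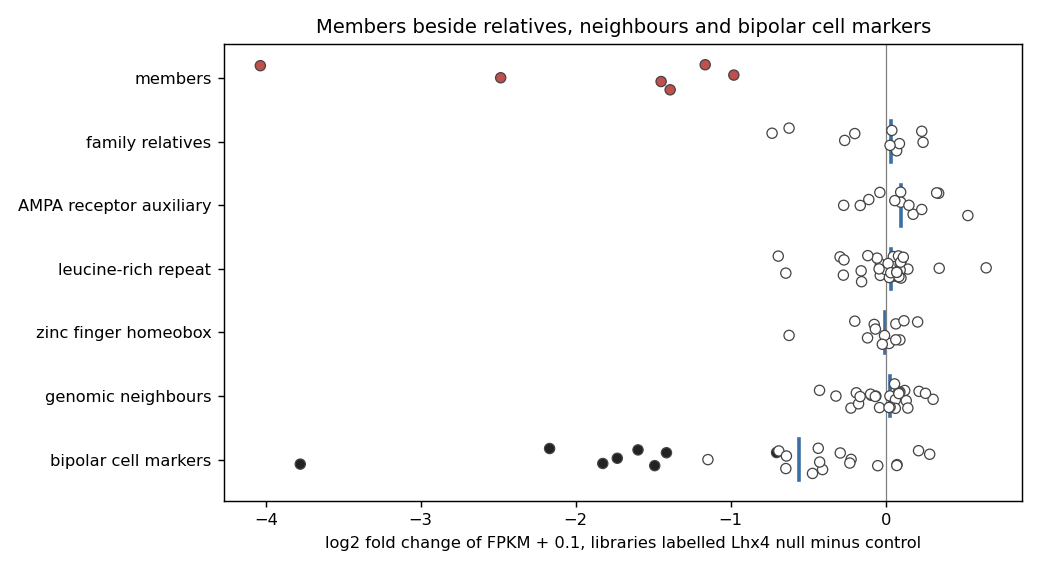
Log2 fold change of FPKM + 0.1, libraries labelled *Lhx4* null minus control, for the 6 genes (red, chosen by these values), their relatives and related lists, their genomic neighbours and bipolar cell markers, with filled black points for genes that limma put at an adjusted p under 0.05 and blue bars for the median of each list. Related lists and neighbours lie around 0, between -0.73 and 0.65, and 8 of 24 bipolar markers are filled. The bipolar list holds genes that the study had reported as lower in these libraries.

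The 6 genes lie on 6 chromosomes, none of them that of *Lhx4* (chromosome 1, 155698031 to 155751684). Up to 3 protein-coding genes on each side of each gene gave 34 neighbours, of which 26 were tested. Of these, 11 were lower and 15 higher than 0, with a median log2 fold change of 0.03 and a range from -0.43 to 0.31. None passed an adjusted p of 0.05 in limma (0 lower and 0 higher), and 1 had an unadjusted p under 0.05. That gene was *Nrip1*, a corepressor gene 265119 bases from *Samsn1*, named after its values were seen, at 14.2, 13.7 and 13.1 FPKM in the controls and at 16.1, 15.8 and 17.2 FPKM in the others (0.26 in log2 fold change, standard error 0.07, adjusted p = 0.42 from limma). The gene nearest to any of the 6 without overlap was *Snrpb2*, 5620 bases from *Otor*, at 22.5, 17.3 and 25.4 FPKM and at 19.6, 25.3 and 21.2 FPKM. The most abundant neighbours were *Dstn*, *Gm8797* and *Selenok*, at 109, 40.3 and 34.8 FPKM over the 6 libraries.

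Promoter windows of 250 bases before the annotated start were available from RefSeq (GRCm38.p6) for 5 of the 6 genes, *Zfhx4* having none in the table. They were searched on both strands for TAATTA, a core that homeodomain proteins bind, TAATCC, bound by OTX and CRX proteins, and the E-boxes CAGATG and CATATG. Of all 32851 windows, 4.84% held TAATTA, 6.25% TAATCC, 14.4% CAGATG and 3.46% CATATG. The *Samsn1* window held TAATTA at 2 places, from 224 to 219 and from 140 to 135 bases before the start, and CAGATG from 14 to 9 bases before it. The *Lrtm1* window held TAATCC, read on the other strand, from 73 to 68 bases before the start. The windows of *Otor* and *A730046J19Rik* and both windows of *Gsg1* held none of these letters. A match is a description and not a site, and a missing match says only that the letters are not in the window.

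The windows are shown for the genes with the lowest log2 fold changes, *Otor* and *Gsg1*, and for those with a match, *Lrtm1* and *Samsn1*. Bases in an annotated exon are left out, and of the windows of *Gsg1* only the first is shown. The stretches are chr2:143078143-143078392 (plus strand, in no annotated gene), chr6:135254352-135254586 (minus strand, upstream of *Gsg1*), chr14:29017958-29018207 (plus strand, in an intron of *Cacna2d3*) and chr16:75909311-75909516 (minus strand, in an intron of longer *Samsn1* transcripts). Capitals mark the motif matches, except CAGATG of *Samsn1*, which lies in the annotated exon bases left out.
*Otor*: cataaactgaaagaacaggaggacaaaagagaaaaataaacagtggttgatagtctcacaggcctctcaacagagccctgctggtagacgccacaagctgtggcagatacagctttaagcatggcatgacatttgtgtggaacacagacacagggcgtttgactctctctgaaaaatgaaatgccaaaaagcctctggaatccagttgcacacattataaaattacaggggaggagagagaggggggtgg
*Gsg1*: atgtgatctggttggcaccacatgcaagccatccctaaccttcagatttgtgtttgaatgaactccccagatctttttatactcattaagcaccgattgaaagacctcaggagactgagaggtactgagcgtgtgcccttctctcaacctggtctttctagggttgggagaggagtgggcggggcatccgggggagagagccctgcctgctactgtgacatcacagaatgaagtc
*Lrtm1*: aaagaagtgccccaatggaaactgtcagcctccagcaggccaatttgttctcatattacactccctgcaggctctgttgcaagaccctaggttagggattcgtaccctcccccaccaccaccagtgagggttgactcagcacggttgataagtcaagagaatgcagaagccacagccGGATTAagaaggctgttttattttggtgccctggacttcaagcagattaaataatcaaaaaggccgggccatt
*Samsn1*: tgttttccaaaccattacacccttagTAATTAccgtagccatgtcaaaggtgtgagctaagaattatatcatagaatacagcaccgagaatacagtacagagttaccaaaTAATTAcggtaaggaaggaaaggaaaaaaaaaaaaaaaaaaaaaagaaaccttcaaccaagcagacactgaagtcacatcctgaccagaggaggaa

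Base composition, looked at after the values were seen, was as follows. The share of G and C was 46.0% in the *Otor* window, 50.8% and 49.6% in those of *Gsg1*, 49.2% in that of *Lrtm1*, 45.2% in that of *A730046J19Rik* and 38.4% in that of *Samsn1*, against a median of 52.4% over all windows. The windows held from 2 (*Otor*) to 6 (*A730046J19Rik*) CG pairs, and the median window held 6. All 6 windows were thus below the median in G and C, and *Samsn1* was lowest, with 9.05% of all windows below it.

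Lists of cell type genes were read in the same libraries to check the tissue and to show which cells were present. Of 24 bipolar genes tested, 8 were lower and 0 higher at an adjusted p under 0.05 from limma, with a median log2 fold change of -0.56 and a summed level of 1035, 1151 and 978 FPKM in the controls, against 751, 823 and 817 FPKM in those labelled *Lhx4* null. The 8 were *Bhlhe23* (-3.78), *Pcp2* (-2.17), *Grik1* (-1.83), *Scgn* (-1.73), *Fezf2* (-1.60), *Grm6* (-1.49), *Lhx3* (-1.41) and *Isl1* (-0.70), in log2 fold change. All of these except *Isl1*, and also *Trpm1* of the list, had been reported by the study as lower in these P7 libraries. The count and the median of the list therefore follow in part from how it was chosen. Over the 14 alternative settings, the calls of *Scgn* and *Isl1* were lost in 8, that of *Pcp2* in 7, that of *Grm6* in 5 and those of the other 4 in 1 each. At an unadjusted p under 0.05 from limma, 17 bipolar genes were lower and 1 was higher. *Otx2* was the most abundant of the list, at 325 FPKM over the 6 libraries, and *Isl1* was at 95.8 FPKM. Of 8 cone genes, 0 were lower and 1, the S-opsin gene *Opn1sw*, was higher (log2 fold change 0.88, standard error 0.12, adjusted p = 0.031 from limma), a call lost in 8 of 14 alternative settings. At an unadjusted p under 0.05 from limma, 2 cone genes were lower and 3 higher, and the median log2 fold change was 0.22. The lower 2, named after their values were seen, were *Opn1mw*, at 1.41, 2.75 and 1.46 FPKM in the controls against 0.699, 0.351 and 0.367 FPKM in the others, and *Arr3*, at 28.7, 29.7 and 30.2 FPKM against 16.9, 8.53 and 12.7 FPKM. Neither overlapped between the groups (adjusted p = 0.097 and 0.077 from limma). *Gngt2*, *Opn1sw* and *Gnat2* led that list, at 289, 133 and 40.9 FPKM.

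The other lists of retinal cells had 0 genes past that threshold in limma in either direction. Their median log2 fold changes were -0.35 for 8 rod genes, 0.16 for 8 amacrine genes, 0.12 for 4 horizontal cell genes, -0.01 for 7 ganglion cell genes, 0.15 for 7 Müller glia genes and -0.20 for 5 endothelial genes. At an unadjusted p under 0.05 from limma, which 3.55% of all genes reached as lower and 4.60% as higher, 4 amacrine genes, 1 ganglion cell gene, 1 Müller glia gene (*Apoe*) and 1 endothelial gene (*Kdr*) were higher and 1 endothelial gene (*Pecam1*) lower, with 0 rod and 0 horizontal cell genes. The most abundant genes were *Sag* and *Nr2e3* for rods (856 and 774 FPKM), *Pax6*, *Slc6a9* and *Tfap2b* for amacrine cells (222, 79.6 and 69.3 FPKM) and *Apoe*, *Rlbp1* and *Glul* for Müller glia (328, 117 and 91.2 FPKM). They were *Sncg*, *Nefl* and *Thy1* for ganglion cells (96.2, 96.1 and 43.5 FPKM), *Calb1*, *Lhx1* and *Onecut1* for horizontal cells (4.57, 3.33 and 3.07 FPKM) and *Kdr*, *Cldn5* and *Pecam1* for endothelium (43.4, 11.5 and 3.28 FPKM).

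*Samsn1* is known from immune cells, and 20 genes of microglia, lymphocytes and mast cells were read beside it. Their summed level was 46.7, 53.7 and 51.9 FPKM in the controls, against 60.2, 54.8 and 70.2 FPKM in those labelled *Lhx4* null, and their part in the values of *Samsn1* was not tested. The complement genes *C1qb* and *C1qa* were highest, at 8.84 and 8.73 FPKM, then *Kit* at 8.08 FPKM. The T cell gene *Cd3e* was listed at 0 in every library, and the B cell genes *Cd79a* and *Ms4a1* and the mast cell gene *Cpa3* were under 0.1 FPKM in every library. Of 14 tested, 0 passed the adjusted threshold of limma, 3 were higher at an unadjusted p under 0.05, and the median log2 fold change was 0.25.

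*Otor* is known from the cochlea and cartilage. Of 15 genes of the inner ear and cartilage, *Col2a1*, *Col9a1* and *Coch* were present, at 55.3, 25.4 and 4.53 FPKM, *Matn1* was listed at 0 in every library, and 6 of the 15, *Matn1* among them, were under 0.1 FPKM in every library, the others being *Otog*, *Otogl*, *Oc90*, *Acan* and *Matn3*. The list summed to 82.7, 83.3 and 77.5 FPKM in the controls, against 92.0, 92.9 and 89.8 FPKM in those labelled *Lhx4* null. Of 8 tested, 0 passed the adjusted threshold of limma and 1, *Col2a1*, was higher at an unadjusted p under 0.05, and the median was 0.13. *Gsg1* is known from male germ cells, and 8 testis genes summed to 0.937, 0.698 and 1.33 FPKM and to 1.16, 1.29 and 0.960 FPKM. *Papolb*, the testis poly(A) polymerase gene whose protein binds that of *Gsg1*, *Ddx4* and *Prm1* were the most abundant, at 0.368, 0.360 and 0.190 FPKM, and *Acrv1* and *Odf1* were listed at 0. Of 3 testis genes tested, 0 passed in limma, adjusted or unadjusted, with a median of 0.14.

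Genes of tissue next to the retina were read as well. Of 6 pigment epithelium genes, summing to 35.7, 31.5 and 17 FPKM in the controls, against 38.8, 50.8 and 68.8 FPKM in those labelled *Lhx4* null, 0 passed the adjusted threshold of limma and 3 were higher at an unadjusted p under 0.05, against 4.60% of all genes. Their median log2 fold change was 0.77, and *Ttr*, *Pmel* and *Rpe65* led at 28.6, 9.45 and 0.850 FPKM. The 9 lens genes summed to 3.35, 24.1 and 3.24 FPKM and to 5.06, 13.6 and 2.96 FPKM, highest in replicate 2 of each group. *Cryaa*, *Cryba1* and *Bfsp2* led at 1.85, 1.75 and 1.48 FPKM, and 0 of 8 tested passed in limma, adjusted or unadjusted, with a median of 0.05. The part of such tissue in the values of the 6 genes was not tested.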

How the data were processed

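Total RNA of the retinas of each P7 mouse was made into a library with the TruSeq RNA Sample Prep Kit and sequenced as paired ends on the Illumina HiSeq X. The authors mapped the reads with Tophat (TopHat2 and GRCm38 in the submitters' processing notes) and Cufflinks gave the FPKM that were deposited. Versions, annotation and strand use are not given in the sources used here. Groups came from the sample labels, which name no batch, and P6 libraries were not analysed here. FPKM are not counts, so log2(FPKM + 0.1) was fitted with limma 3.58.1 (R 4.3.3; lmFit, then eBayes with trend, no block, two-sided) over the 15200 genes whose mean reached 0.1 FPKM, with Benjamini-Hochberg adjustment. The depth method was run on simulated whole fragments of 4365 genes, with a largest error of 0.0%. The simulation used the same formula as the method, so it checks the calculation and not the accuracy in the real libraries. There, 70.5% to 74.0% of the low values checked lay near a whole fragment.

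Positions, neighbours and transcript lengths came from GENCODE vM21, which holds 21603 of the 21744 gene identifiers. Where a symbol occurred more than once, as 6 did, its entry of highest mean was used. Depth came from single-transcript genes under 0.1 FPKM. Python 3.11.15 and matplotlib 3.10.9 drew the plots.

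The members and lists were chosen with earlier results of these data known. Named were *Lhx4*, the members, relatives, neighbours and cell type genes past an adjusted p of 0.05, the family relatives, up to 3 of the most abundant genes of each other list, overlapping genes, and the 3 genes most like each member. Genes chosen after their values were seen are marked as such, apart from *Eif2s3y*, *Nrl* and the genes named for values at 0 or under 0.1 FPKM. Alternatives were a pseudocount of 1 or of 0.01 FPKM, no filter or a filter at 1 FPKM, scaling by median of ratios or by quantiles, no trend, a replicate block, and the removal of each library in turn.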

Additional observations from a re-analysis of the deposited data

How the results depend on the processing

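Each member's log2 fold change stayed below 0 in all 14 alternatives. In each member every library labelled *Lhx4* null lay below every control. A change of pseudocount, filter, trend or block, or a library left out, could therefore not turn the sign. Only the scalings by median of ratios and by quantiles could have done so. A pseudocount of 1 FPKM brought it nearer to 0 by construction: -2.5 for *Otor*, -0.65 for *Lrtm1*, -1.15 for *A730046J19Rik* and -1.23 for *Zfhx4*. Of the members, 4 to 6 were lower by over 2-fold, which follows from how they were chosen. In the main setting 0.533% of all genes tested were, and their share under the alternatives was not counted. Of the cell type genes, 8 were lower and 1 was higher at an adjusted p under 0.05 from limma. Lower were 0 without the filter, 4 without the trend and 4 to 7 with a library left out (4 without replicate 3 labelled *Lhx4* null, 5 without its replicate 2 or control replicate 1). Higher were 0 without the filter, without the trend and with quantile normalization, and 0 to 1 with a library left out. The causes were not tested. Relatives had 0 lower under every alternative, and 0 to 1 higher with a library left out, the 1 being *Islr2*. Neighbours had 0 in either direction throughout. Signs turned, with a library left out, for *Gsg1l2* (-0.45 to 0.0543), *Sash3* (-0.12 to 0.34), *Sertm1* (-0.0171 to 0.0992), *Cacna2d3* (-0.00394 to 0.0774) and *Fam234b* (-0.0956 to 0.0173), and for *Sertm1* with quantile normalization (-0.00984). The labels do not say whether replicate numbers pair the samples. Deviations of same-numbered libraries from their group means correlated at -0.127, -0.000198 and 0.162, which cannot settle it with so few libraries. With the replicate block, 4 cell type genes were lower and 1 was higher, and 15 genes of all tested were called against 34. Of all genes tested, 0 were called without the filter, 24 without the trend and 15 to 31 with a library left out. Depth limits *Otor*, with 1 to 13 fragments where it is low.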
